A study of Mus musculus with 6 samples.

Results

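The 9 genes described here are Sp7, the 6 Dlx genes (Dlx1 to Dlx6), Msx1 and Msx2. They were taken by name from a deposited table of 31055 RefSeq transcripts, which belong to 23364 gene symbols, and the values of the transcripts of 1 symbol were summed in each library. All 9 symbols were found, and only Dlx5 had more than 1 transcript in the table. RNA was sequenced from C57BL/6 mice at postnatal day 1 in 2 groups of 3 libraries. The osteoblast group held cells of the calvaria, the skull roof, that were released with Liberase, sorted for green fluorescent protein (GFP) and labelled "Sp7 positive" for genotype. The chondrocyte group held cells of rib cartilage from wild-type animals, released with Pronase and Collagenase D, and no sort is labelled for them. The sources used here do not say which promoter or allele drives GFP, whether the animals carried other alleles or whether animals were pooled. Cell type, skeletal site, sorting, genotype label and enzyme all go with the group and cannot be told apart. Nothing says that the 3 libraries of a group came from separate animals, so p-values measure only the spread between these libraries, which may be technical.

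Sp7 (Osterix) belongs to the Sp family of zinc finger proteins, and without this factor osteoblast precursors do not become bone-forming cells. Dlx and Msx proteins are homeodomain transcription factors, relatives of the fly Distal-less and muscle segment homeobox proteins, which bind short AT-rich DNA motifs. Dlx genes lie in linked pairs (Dlx1 with Dlx2, Dlx3 with Dlx4, Dlx5 with Dlx6), and Dlx5, Dlx6, Msx1 and Msx2 are known for their parts in building the face, skull and limbs. Dlx proteins are usually described as activators and Msx proteins as repressors of shared targets, and both families respond to bone morphogenetic protein (BMP) signals. The series title names Sp7 as a co-factor of Dlx proteins, and the comparison here asks which of these factors the Sp7-positive osteoblasts hold that the chondrocytes do not.

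Within the homeodomain, the recognition helix is the part that lies in the major groove of DNA, and the 51 coding bases around it are shown because contact with DNA there is common to Dlx and Msx proteins, for the 6 Dlx genes and Msx2. The bases were read from GENCODE transcripts of build GRCm38, 5′ to 3′, with capitals where a base is unlike that of Dlx5.
Dlx1: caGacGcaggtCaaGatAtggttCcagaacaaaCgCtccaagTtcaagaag
Dlx2: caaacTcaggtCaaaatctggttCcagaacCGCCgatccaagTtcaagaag
Dlx3: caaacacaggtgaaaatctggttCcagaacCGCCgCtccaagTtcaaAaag
Dlx4: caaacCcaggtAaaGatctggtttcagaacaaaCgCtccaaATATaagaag
Dlx5: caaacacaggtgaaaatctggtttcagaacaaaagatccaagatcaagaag
Dlx6: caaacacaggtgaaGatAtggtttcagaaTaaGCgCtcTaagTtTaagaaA
Msx2: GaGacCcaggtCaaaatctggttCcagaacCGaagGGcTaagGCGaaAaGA
Dlx6 differed from Dlx5 at 10 of these 51 bases and Msx2 at 16. Over the whole homeobox of 180 bases, identity with Dlx5 was 76.1% for Dlx1, 75.6% for Dlx2, 73.3% for Dlx6, 71.7% for Dlx3, 67.2% for Dlx4 and 58.9% for Msx2. The closest pair of Dlx genes was Dlx2 with Dlx3, at 81.7%. The longest exact run that 2 of the 9 genes' transcripts shared was 26 bases, between Dlx2 and Msx2. The sources used here do not say how the authors' counting treated reads that match 2 places.

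Dlx5 has 2 transcripts in the table, of 1423 and 1324 bases, and they differ in the second exon. Other differences between them are not shown. The 82 bases in capitals are in the long transcript only. Before them stand the last 20 bases of exon 1, and after them 20 bases that both transcripts hold. The last 29 of the 82 are the first 29 of the 180 bases of the homeobox.
Dlx5 exon 2: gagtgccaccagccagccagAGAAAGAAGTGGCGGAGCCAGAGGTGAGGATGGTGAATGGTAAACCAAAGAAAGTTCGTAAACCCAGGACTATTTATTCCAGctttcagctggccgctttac
The long transcript has 289 codons. The short one has 146, and the homeodomain core was not found in it.

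Sp7 was the most abundant of the 9 genes in osteoblasts and 82.5-fold lower in chondrocytes, which is the difference that a sort for Sp7-positive cells would select, so it serves as a check of the labels. In RPKM, a read count scaled to transcript length and to the depth of the library, its level was 115, 108 and 134 in the 3 osteoblast libraries and 0.911, 2.31 and 1.10 in the 3 chondrocyte libraries. The lowest osteoblast library lay far above the highest chondrocyte library. The means were 119 ± 13.4 and 1.44 ± 0.761 RPKM (SD, n = 3 each). On the scale of log2(RPKM + 1), osteoblasts exceeded chondrocytes by 5.66 ± 0.21 (SE), at a Benjamini-Hochberg adjusted p of 1.7e-06 by limma. Every log2 difference below is osteoblast minus chondrocyte on that scale. By mean level Sp7 ranked 336 of 23364 symbols in osteoblasts and 9665 in chondrocytes. The chondrocyte values stand for about 94.2, 239 and 121 estimated reads, so Sp7 was low there but not at 0. In these bulk libraries, fewer cells that hold a transcript and less of it per cell cannot be told apart.

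Of the 9 genes, 6 passed the filter of at least 1 RPKM in at least 3 of the 6 libraries and were tested: Sp7, Dlx3, Dlx5, Dlx6, Msx1 and Msx2. All 6 were called higher in osteoblasts at an adjusted p under 0.05, in a comparison in which 55.5% of all 11218 tested genes were called higher in osteoblasts and 13.5% higher in chondrocytes. Dlx3, Dlx6 and Msx2 were under 1 RPKM in every chondrocyte library and passed the filter only through osteoblasts, so their direction was built in, and Sp7 and Dlx5 also needed the osteoblast libraries to pass. The count is therefore given as a description. The median log2 difference of the 6 was 3.81, against 0.43 over all tested genes. Ranked by log2 difference among the 11218 tested genes, Sp7 stood 9th, Dlx5 24th, Dlx6 43rd, Msx1 64th, Dlx3 100th and Msx2 147th from the top. In all 6, the 3 osteoblast libraries lay above the 3 chondrocyte libraries, as they did in 60.4% of tested genes.

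**Figure D1:**
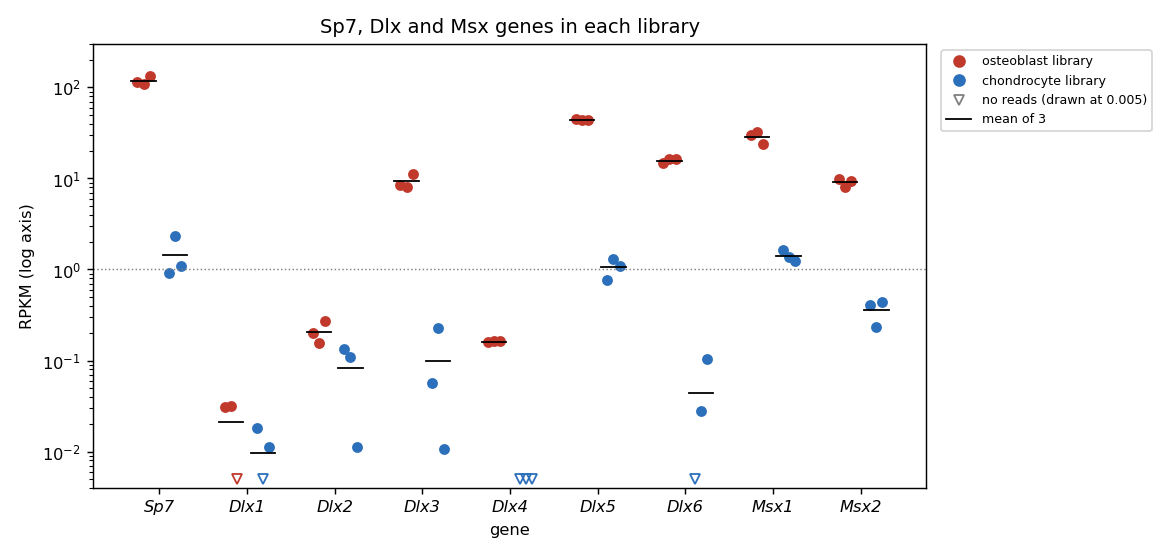
RPKM of the 9 genes (log axis) in the 3 osteoblast libraries (red) and 3 chondrocyte libraries (blue), with the mean of each group as a bar and open triangles for libraries with no reads, drawn at 0.005. Sp7, Dlx3, Dlx5, Dlx6, Msx1 and Msx2 are each above 7 RPKM in every osteoblast library and under 2.5 RPKM in every chondrocyte library, while Dlx1, Dlx2 and Dlx4 stay under 0.3 RPKM in all 6 libraries.

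**Figure D2:**
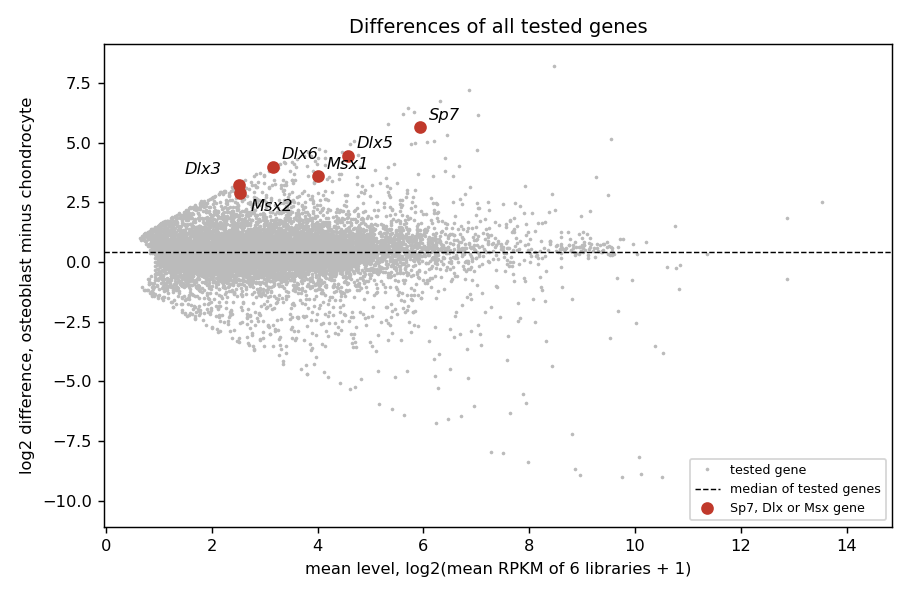
Log2 difference of RPKM + 1, osteoblast minus chondrocyte, against mean level for the 11218 tested genes (grey points), with the 6 tested genes in red and the median of all tested genes, 0.43, as a dashed line. The 6 genes lie from 2.89 to 5.66, at the upper edge of the cloud for their level.

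Dlx5 was the main Dlx gene of the osteoblasts. Its level was 44.8, 44.0 and 44.2 RPKM in osteoblasts and 0.769, 1.32 and 1.10 RPKM in chondrocytes. The 3 osteoblast libraries were almost equal, and the groups did not overlap. The mean was 44.3 ± 0.397 RPKM against 1.06 ± 0.276 (SD, n = 3 each), 41.8-fold, with a log2 difference of 4.47 ± 0.12 (SE) and an adjusted p of 5.21e-07 (limma). Dlx5 made up 61.3% to 65.4% of the summed RPKM of the 6 Dlx genes in osteoblasts and 78.4% to 88.9% in chondrocytes, so it led the Dlx genes in both. That sum was 68.4, 68.7 and 72.0 RPKM in osteoblasts and 0.976, 1.68 and 1.24 RPKM in chondrocytes.

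The long Dlx5 transcript, which holds the whole homeobox, carried most of the Dlx5 signal in both cell types. It had 41.6, 39.0 and 40.2 RPKM in osteoblasts and 0.632, 1.18 and 0.920 RPKM in chondrocytes. The short transcript took 7.03%, 11.3% and 8.87% of Dlx5 RPKM in osteoblasts and 17.8%, 10.3% and 16.3% in chondrocytes. The ranges of the 2 groups overlap, and the chondrocyte shares rest on 6.04, 5.97 and 8.45 estimated reads. The share was not tested.

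Dlx6, the partner of Dlx5 at the same locus, was the Dlx gene with the next highest level in osteoblasts and was near 0 in chondrocytes. Its level was 14.8, 16.2 and 16.2 RPKM in osteoblasts. In chondrocytes it was 0, 0.0277 and 0.104 RPKM, which stand for 0, 0.99 and 3.97 estimated reads. The groups did not overlap, and the means were 15.7 ± 0.812 and 0.0439 ± 0.0538 RPKM (SD, n = 3 each). Limma gave a log2 difference of 4.003 ± 0.10 (SE) and an adjusted p of 4.09e-07, and the 359-fold ratio of means is imprecise because its lower part rests on so few reads.

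Dlx3, known for its part in skin, placenta, teeth and bone, came next among the Dlx genes. It was at 8.50, 8.10 and 11.3 RPKM in osteoblasts and at 0.0571, 0.228 and 0.0107 RPKM in chondrocytes. All osteoblast libraries were higher than all chondrocyte libraries, and the second chondrocyte library was the highest of its group. The means were 9.29 ± 1.72 and 0.0985 ± 0.114 RPKM (SD, n = 3 each), a ratio of 94.3, with a log2 difference of 3.22 ± 0.15 (SE) and an adjusted p of 4.03e-06 (limma). The chondrocyte values stand for 4.97, 19.8 and 0.99 estimated reads. Markers of epidermis, where Dlx3 is also known to act, summed to 2.71 to 3.20 RPKM over 8 genes in osteoblasts and 0.968 to 1.34 RPKM in chondrocytes. Krt14, a keratin of the basal layer, was at 0, 0.0179 and 0.0223 RPKM in osteoblasts and at 0 in all chondrocyte libraries. Krt1, Lor, Cdh1 and Krt5 were higher in every osteoblast library than in any chondrocyte library, with values given below.

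Dlx1, Dlx2 and Dlx4 were close to the limit of detection in both cell types, and none passed the filter. Dlx2, best known with Dlx1 from forebrain interneurons and the branchial arches, was at 0.198, 0.156 and 0.269 RPKM in osteoblasts and 0.132, 0.108 and 0.0112 RPKM in chondrocytes. Dlx4, known from the placenta, was at 0.158, 0.163 and 0.163 RPKM in osteoblasts and is listed at 0 in the 3 chondrocyte libraries. Dlx1 was at 0.0311, 0.0320 and 0 RPKM in osteoblasts and at 0.018, 0 and 0.0112 RPKM in chondrocytes, which is under 5 estimated reads in every library. The groups did not overlap for Dlx2 and Dlx4 and overlapped for Dlx1. Dlx2 separated by little, with 12.9 estimated reads in osteoblast library 2 and 10.9 in chondrocyte library 1. Among the genes that passed the filter, 60.4% had all osteoblast libraries higher, and no such share was computed below the filter. When all 17940 genes with any signal were tested, 41.9% were called higher in osteoblasts. There Dlx4 had a log2 difference of 0.22 (adjusted p = 0.000113, limma), Dlx2 one of 0.16 (adjusted p = 0.0479) and Dlx1 one of 0.02 (adjusted p = 0.474). With limma's voom on estimated reads, which called 52.2% of 13405 genes higher in osteoblasts, Dlx2 had an adjusted p of 0.0885. Gad2, an interneuron enzyme, was at 0 in all 6 libraries.

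Msx1 and Msx2 were both higher in osteoblasts, and Msx1 was above Msx2 in every library of both cell types. Msx1 was at 29.7, 32.2 and 23.7 RPKM in osteoblasts and 1.65, 1.35 and 1.23 RPKM in chondrocytes. Even its lowest osteoblast library was far above the chondrocytes. The means were 28.6 ± 4.38 and 1.41 ± 0.218 RPKM (SD, n = 3 each), 20.2-fold, with a log2 difference of 3.61 ± 0.14 (SE) and an adjusted p of 1.74e-06 (limma). Msx1 alone among the 6 tested genes reached 1 RPKM in all 3 chondrocyte libraries.

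Msx2, in which a gain of function is known to close the sutures of the human skull too early, was at 9.96, 7.99 and 9.46 RPKM in osteoblasts and 0.412, 0.233 and 0.437 RPKM in chondrocytes. The groups did not overlap. The means were 9.14 ± 1.02 and 0.361 ± 0.111 RPKM (SD, n = 3 each), 25.3-fold, with a log2 difference of 2.89 ± 0.12 (SE) and an adjusted p of 2.77e-06 (limma). Summed RPKM of Msx1 and Msx2 was 39.7, 40.2 and 33.2 in osteoblasts and 2.06, 1.59 and 1.67 in chondrocytes. Msx1 made up 71.5% to 80.1% of that sum in osteoblasts and 73.7% to 85.3% in chondrocytes.

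By mean RPKM, which is scaled to length and can be set side by side between genes, the order in osteoblasts was Sp7, Dlx5, Msx1, Dlx6, Dlx3, Msx2, Dlx2, Dlx4 and Dlx1. The libraries of Dlx3 and Msx2 overlapped, as did those of Dlx2 and Dlx4, and the other neighbours in the order were separate in all 3 libraries. In chondrocytes Sp7, Msx1 and Dlx5 led with overlapping values near 1 RPKM. Msx2 followed, separate from Dlx5 above it and Dlx3 below it, and the libraries of Dlx3, Dlx2, Dlx6, Dlx1 and Dlx4 overlapped from each to the next.

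The ratios of 3 pairs of genes within a library were compared between the cell types. A plain RPKM ratio does not depend on how libraries are scaled, but the tested log2 ratio does at low levels, through the RPKM added to both genes. The RPKM of Dlx5 was 3.03, 2.71 and 2.73 times that of Dlx6 in osteoblasts and 47.5 and 10.6 times in chondrocyte libraries 2 and 3, with no ratio in library 1, where Dlx6 was at 0. The log2 ratio, with 0.1 RPKM added, was 1.49 ± 0.088 in osteoblasts and 3.05 ± 0.462 in chondrocytes (SD, n = 3 each), a difference of -1.56 (exact permutation test, two-sided, p = 0.1, adjusted over the 3 ratios 0.15). The ratio of Dlx5 to Msx2 was 4.496, 5.51 and 4.67 in osteoblasts and 1.87, 5.64 and 2.51 in chondrocytes, a log2 difference of 0.94 (exact permutation p = 0.1, adjusted 0.15). The ratio of Msx1 to Msx2 was 2.98, 4.03 and 2.51 in osteoblasts and 4.01, 5.81 and 2.81 in chondrocytes, a log2 difference of -0.11 (exact permutation p = 0.8, adjusted 0.8). With 3 libraries against 3, the smallest p that this test can give is 0.1, so none could pass 0.05. With 1 RPKM added instead of 0.1, the Dlx5 to Dlx6 difference turned to 0.46 and that of Msx1 to Msx2 to 0.71, so the direction of neither ratio can be read from these low chondrocyte levels.

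Transcripts named as antisense or opposite strand to the Dlx and Msx genes were low. The antisense transcript of Msx1 (Msx1as) was at 1.19, 1.37 and 1.10 RPKM in osteoblasts and at 0.0248 to 0.0498 RPKM in chondrocytes. Dlx6as1, a non-coding transcript of the Dlx5 and Dlx6 locus, was at 0.726, 0.795 and 0.836 RPKM in osteoblasts and at 0.007 to 0.035 RPKM in chondrocytes. Both were higher in every osteoblast library than in any chondrocyte library, as 60.4% of all tested genes were. Dlx6as2 was at 0.149, 0.109 and 0.191 RPKM in osteoblasts and is listed at 0 in chondrocytes. Dlx1as was at 0, 0.0106 and 0 RPKM in osteoblasts and at 0.014, 0.0319 and 0.0087 RPKM in chondrocytes, where the groups overlap. The sources used here do not say whether the counting used strand, so reads of a gene and of its antisense partner cannot be told apart.

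The labelled cell types carried their defining markers. All 7 osteoblast markers were higher in osteoblasts and all 8 chondrocyte markers, Col2a1 and Acan among them, higher in chondrocytes. Genes listed as markers of other cell types also differed between the groups. The background was 55.5% of all tested genes called higher in osteoblasts and 13.5% higher in chondrocytes. Some markers passed the filter through 1 group only, which built in their direction. These were Bglap, Bglap2, Dmp1, Ifitm5, Cd68, Mmp9, Dpt and Tubb3 through osteoblasts, and Matn1 and Matn3 through chondrocytes. The marker counts are therefore given as a description. Among 8 myeloid and osteoclast genes, 6 passed the filter and all 6 were higher in osteoblasts. The 8 summed to 218 to 233 against 48.0 to 170 RPKM, most of it the osteoclast protease Ctsk. The leukocyte gene Ptprc, below the filter, was at 0.270 to 0.345 RPKM in osteoblasts and 0.0057 to 0.175 RPKM in chondrocytes, and the groups did not overlap. The neuronal tubulin gene Tubb3 was at 6.86, 8.65 and 6.38 RPKM in osteoblasts and under 0.06 RPKM in chondrocytes, and Stmn2 at 0.716 to 0.757 against 0.0312 to 0.0731 RPKM, while the neuronal genes Gad1, Gad2, Snap25 and Slc17a6 were at or under 0.0272 RPKM in all libraries. Of 5 tested genes of perichondrium, tendon and fibroblasts, 3 were called higher in osteoblasts and 1 in chondrocytes, and of 3 genes of hypertrophic cartilage 1 was called each way. Of 4 tested erythroid genes 1 was called higher in osteoblasts, the only tested glial gene, S100b, was higher in chondrocytes, and the only tested epidermal gene, Krt10, was not called. Of the epidermal genes below the filter, Krt1 (0.348 to 0.497 against 0.0121 to 0.0486 RPKM), Lor (0.977 to 1.12 against 0.0626 to 0.167), Cdh1 (0.126 to 0.294 against 0.0063 to 0.0135) and Krt5 (0.0658 to 0.122 against 0 to 0.0254) were higher in every osteoblast library than in any chondrocyte library. Among the genes that passed the filter, 60.4% also had every osteoblast library above every chondrocyte library. No gene of skeletal muscle or endothelium passed the filter, with sums of at most 0.271 and 4.97 RPKM in any library. Estimated depth was 26900000 to 35700000 reads a library. Pearson's r of log2(RPKM + 1) over genes was 0.992 to 0.994 between osteoblast libraries, 0.961 to 0.986 between chondrocyte libraries and 0.777 to 0.820 between the groups, given as a description. Whether the marker genes of other cell types were expressed by such cells or by the labelled cells was not tested. The part of other cell types in the differences of the Sp7, Dlx and Msx genes was not tested either.

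The chondrocyte libraries differed among themselves in genes of bone and of mature cartilage, and the low levels of Sp7, Dlx5 and Dlx3 varied too. In replicates 1, 2 and 3, Alpl (an alkaline phosphatase of mineralising cells) was at 2.09, 3.92 and 2.10 RPKM, Phospho1 (a phosphatase of matrix vesicles) at 1.72, 7.47 and 2.29, and Ibsp (bone sialoprotein) at 1.06, 1.85 and 1.07. Col10a1, the collagen of hypertrophic cartilage, was at 19.9, 58.4 and 3.32 RPKM, Ihh, a signal of prehypertrophic chondrocytes, at 1.35, 6.93 and 1.18, and the cartilage gene Matn1 at 3.12, 46.6 and 3.10. Replicate 2 was the highest of the 3 in all of these, as in Sp7, Dlx5 and Dlx3, while Msx2 was lowest there and Msx1 lay between. The remaining osteoblast markers were mixed. Bglap and Bglap2 were also highest in replicate 2. Ifitm5 (0.461, 0.335 and 0.510 RPKM) and Col1a1 (2270, 2259 and 7765) were lowest there, and Dmp1 (0.172, 0.151 and 0.101) lay between. The genes were chosen after their values were seen, and with 3 libraries no relation between them was tested. Without chondrocyte replicate 2, the 6 tested genes were still called higher in osteoblasts. Over the 6 fits that left out 1 library each, the log2 difference of Sp7 ranged from 5.50 to 5.90, that of Dlx5 from 4.36 to 4.56 and that of Dlx3 from 3.09 to 3.30.

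**Figure D3:**
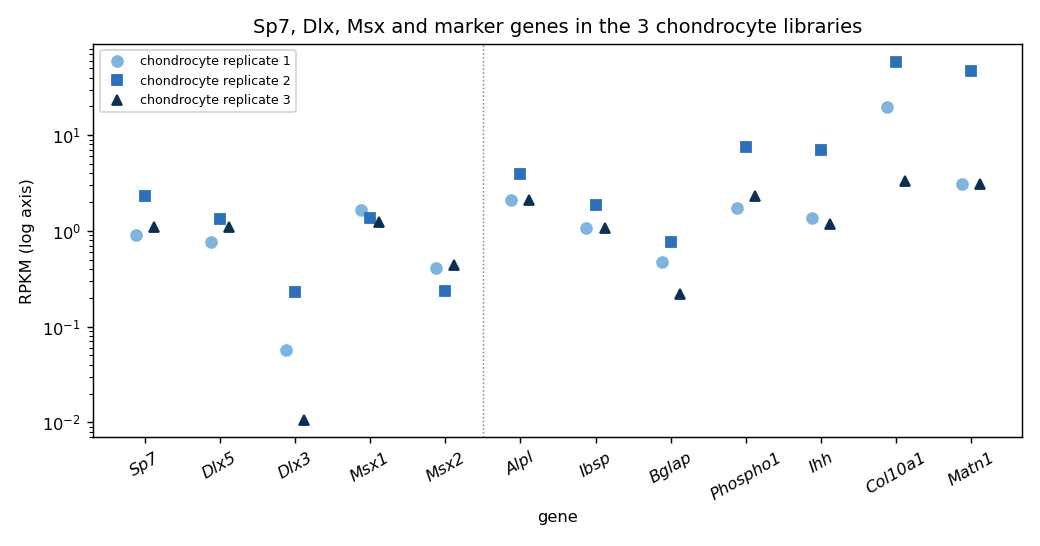
RPKM (log axis) of Sp7, Dlx5, Dlx3, Msx1 and Msx2, left of the dotted line, and of 7 marker genes, right of it, in the 3 chondrocyte libraries, 1 symbol each. Replicate 2 (squares) is the highest in Sp7, at 2.31 RPKM, in Dlx5, in Dlx3 and in the 7 markers, and the lowest in Msx2, at 0.233 RPKM. The 7 markers were chosen after their values were seen. The osteoblast markers Ifitm5, Col1a1 and Dmp1, which are not drawn, were not highest in replicate 2.

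Among the 9 Sp family genes, Sp7 stood alone in the size of its difference. Of 5 tested, 2 were called higher in osteoblasts (Sp7 and Sp3), 1 higher in chondrocytes (Sp4) and 2 were not called. In the same scaling, 55.5% of all tested genes were called higher in osteoblasts and 13.5% higher in chondrocytes. The median log2 difference of the 5 was -0.01 against 0.43 over all tested genes. Sp1 (11.4, 9.63 and 10.9 against 11.2, 11.4 and 11.3 RPKM) and Sp2, ubiquitous GC-box binding factors, had log2 differences of -0.08 and -0.01 and were not called. Sp3 had a difference of 0.27 (adjusted p = 0.0348, limma) that turned to -0.20 when libraries were scaled by the median of ratios. Sp4 was at 0.827 ± 0.0358 RPKM in osteoblasts and 2.44 ± 0.400 in chondrocytes (SD, n = 3 each), a difference of -0.91 (adjusted p = 0.000345, limma), and passed the filter only through chondrocytes, which builds in its direction. Sp6, a factor of tooth and skin epithelium, did not pass the filter, at 1.09, 0.764 and 1.39 RPKM in osteoblasts and 0.308, 0.0791 and 0.181 in chondrocytes. The scaling matters for small differences: the share of all calls that were higher in osteoblasts was 80.5% in the deposited scaling, 72.8% with libraries scaled to the same total and 49.9% with the median of ratios, which moved the median of all tested genes from 0.43 to 0.01. Under the median of ratios, 30.6% of tested genes were called higher in osteoblasts and 30.7% higher in chondrocytes, Sp1 and Sp2 were called higher in chondrocytes, and the 6 Sp7, Dlx and Msx genes kept log2 differences of 2.60 to 5.24.

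Most homeobox genes related to Dlx and Msx were too low to be tested. Of 35 listed, 34 were in the table and 5 passed the filter, 4 of them called higher in osteoblasts and 1 higher in chondrocytes. These directions held for 55.5% and 13.5% of all tested genes, and nothing is read from the counts. En1, known for patterning the midbrain, limb and skull, was at 10.8, 10.01 and 8.62 RPKM in osteoblasts and 0.0116, 0.0232 and 0.0545 RPKM in chondrocytes, a log2 difference of 3.39 ± 0.11 (SE; adjusted p = 1.02e-06, limma). Its osteoblast level was thus like that of Dlx3. Nkx6-1 (1.73), Hmx1 (1.67, listed at 0 in the 3 chondrocyte libraries) and Barx1 (1.06) had smaller log2 differences at osteoblast means of 2.41, 2.23 and 1.76 RPKM. En1, Nkx6-1, Hmx1 and Barx1 were under 1 RPKM in every chondrocyte library, so they passed the filter only through osteoblasts. Hlx, known from gut and liver mesenchyme, went the other way, at 2.12 ± 0.268 against 5.26 ± 0.696 RPKM (SD, n = 3 each), a log2 difference of -1.001 (adjusted p = 0.000315, limma). Msx3, the remaining Msx gene, was at or under 0.0126 RPKM in all libraries.

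**Figure D4:**
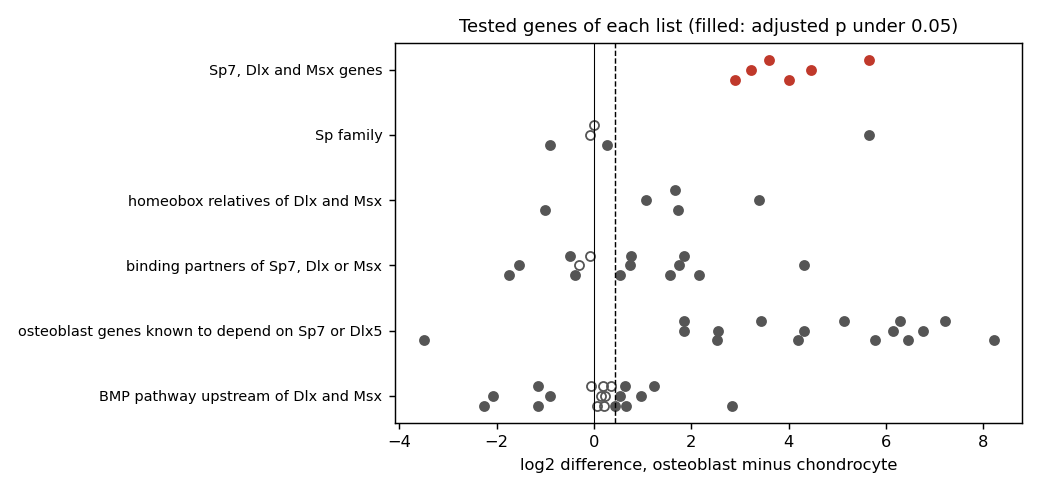
Log2 difference (osteoblast minus chondrocyte) of each tested gene in the set of Sp7, Dlx and Msx genes (red) and in 5 related lists (grey), with filled points for an adjusted p under 0.05, a solid line at 0 and a dashed line at the median of all tested genes, 0.43. Sp7 is the only Sp family gene past 0.43, and 15 of the 16 genes known to depend on Sp7 or Dlx5 lie past it while Fmod lies at -3.51.

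Genes of proteins known to bind Sp7, Dlx or Msx factors differed in both directions. Of 16 listed, 14 were tested, 8 called higher in osteoblasts, 4 higher in chondrocytes and 2 not called, with a median log2 difference of 0.64. Of all tested genes, 55.5% were called higher in osteoblasts and 13.5% higher in chondrocytes, with a median of 0.43, and nothing particular to the list is read from its counts. Pax3 was at 0 in all 6 libraries and Hist1h1b, a linker histone gene, at 0.0414 to 0.398 RPKM, and neither was tested. Runx2, the factor that acts before Sp7 in osteoblast development, was at 35.8 ± 1.61 against 9.26 ± 0.167 RPKM (SD, n = 3 each), a log2 difference of 1.84 (adjusted p = 4.23e-06, limma), so chondrocytes held more Runx2 than Sp7. Aes, of the Groucho family of co-repressors, had a log2 difference of 2.16, and its relatives split: Tle2, Tle3 and Tle4 were called higher in osteoblasts and Tle1 in chondrocytes (-1.54), but Tle3 was not called under the median of ratios. Nfatc1, a calcineurin-regulated factor known to form a complex with Sp7, was higher in chondrocytes, at 17.5 ± 1.21 against 64.2 ± 24.1 RPKM (SD, n = 3 each), a log2 difference of -1.75 (adjusted p = 0.000566, limma). Pias1 (-0.38) and Tbp (-0.49), which are known to bind Msx1, were also called higher in chondrocytes. Maged1 (-0.08) and Ndn (-0.32), partners that hold Dlx and Msx proteins together, were abundant and not called. With the median of ratios both were called higher in chondrocytes, and Ndn was also called so with TPM scaling (-0.49) and with voom (-0.36).

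The osteoblast genes known to depend on Sp7 or Dlx5 were, with 1 exception, higher in osteoblasts. Of 16, all tested, 15 were called higher in osteoblasts and 1 higher in chondrocytes, with a median log2 difference of 4.73. Over all tested genes these shares were 55.5% and 13.5%. The list was drawn up with the osteoblast phenotype in mind and holds several osteoblast markers, so its direction is no independent evidence. Ibsp (660, 522 and 939 RPKM in osteoblasts, 1.06, 1.85 and 1.07 in chondrocytes) had a log2 difference of 8.22, Bglap of 7.21, Bglap2 of 6.77 and the osteocyte gene Dmp1 of 6.46, of which Bglap, Bglap2 and Dmp1 passed the filter only through osteoblasts. Bglap and Bglap2, which encode osteocalcin, are near-identical copies, and how reads were split between them is uncertain. Fmod, a matrix proteoglycan reported as a target of Sp7, was at 217 ± 53.9 RPKM in osteoblasts and 2451 ± 398 in chondrocytes (SD, n = 3 each), a log2 difference of -3.51 (adjusted p = 1.29e-05, limma). It was thus 11.3-fold higher in the cells with little Sp7.

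Genes of BMP signalling, which acts before Dlx and Msx genes, were called in both directions. Of 19 genes tested, 7 were called higher in osteoblasts, 5 higher in chondrocytes and 7 were not called. The shares over all tested genes were 55.5% and 13.5%. The median log2 difference was 0.20, below that of all tested genes. With the median of ratios the counts were 2 and 8, beside shares over all tested genes of 30.6% and 30.7%. Nog, the secreted BMP antagonist noggin, had a log2 difference of 2.83 (23.4 ± 4.23 against 2.72 ± 2.00 RPKM, SD, n = 3 each), and the inhibitory Smad6 one of 1.24. The ligand Bmp4 was higher in osteoblasts (0.96), a call lost with the median of ratios, and Bmp2 (-0.91), Bmp6 (-1.15) and Bmp7 (-1.15) were higher in chondrocytes. The type I receptor gene Bmpr1b was at 0.0360 ± 0.0168 RPKM in osteoblasts and 3.39 ± 0.368 in chondrocytes (SD, n = 3 each), a log2 difference of -2.08, and passed the filter only through chondrocytes. Of the Id genes, which are direct BMP targets, Id4 was higher in chondrocytes (-2.27), Id2 (0.64) and Id3 (0.54) were higher in osteoblasts, calls lost with the median of ratios and with TPM scaling, and Id1 was not called (0.22). The signal transducer Smad4 was not called (0.18).

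The 3 nearest protein-coding genes on each side of each Sp7, Dlx or Msx locus, 36 in all by the RefSeq gene order of GRCm38, were set beside these genes because the Dlx genes lie in linked pairs. Of these, 35 were found and 30 tested, of which 19 were called higher in osteoblasts, 6 higher in chondrocytes and 5 not called, with a median log2 difference of 0.71. Over all tested genes 55.5% were called higher in osteoblasts and 13.5% higher in chondrocytes, with a median of 0.43, so the counts of neighbours are near the background and nothing is read from them about the loci. With the median of ratios, 13 were called higher in osteoblasts and 9 higher in chondrocytes, with a median of 0.25. The shares over all tested genes in that scaling were 30.6% and 30.7%, with a median of 0.01, and nothing is read from these counts either. No neighbour of Sp7 or of the Dlx5 and Dlx6 pair was called higher in chondrocytes in the deposited scaling, where Aaas (2.61), a nuclear pore gene beside Sp7, and Slc25a13 (1.68), a mitochondrial carrier gene near Dlx6, had the largest differences. Sp1, on the other side of Sp7, was not called. Near Dlx5 and Dlx6, Shfm1 (1.48), Tac1 (1.22), Dync1i1 (0.84) and Acn9 (0.73) were also higher in osteoblasts and Asns was not called. Near Sp7, Myg1 (1.32), Prr13 (0.66) and Pfdn5 (0.54) were higher in osteoblasts, the last 2 not under the median of ratios.

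The Msx1 locus held neighbours that differed in opposite directions. Cytl1, a secreted cytokine-like protein of cartilage, lies next to Msx1 on 1 side and was at 0.207, 0.548 and 0.380 RPKM in osteoblasts and 428, 309 and 339 RPKM in chondrocytes. The groups were farther apart than those of Msx1 itself, with a log2 difference of -8.02 ± 0.15 (SE; adjusted p = 2.5e-07, limma). Stk32b, a kinase gene beyond Cytl1, was at 0.0640 ± 0.00516 against 10.9 ± 1.57 RPKM (SD, n = 3 each), a difference of -3.47. Both were under 1 RPKM in every osteoblast library, as was Itga6 near Dlx2, so they entered the test only through chondrocytes and their direction was built in, as it was for Slc25a13 and Tac1 through osteoblasts. On the other side of Msx1, Nsg1 (2.16) and Stx18 (0.74) were higher in osteoblasts, and Evc2 (0.71), the gene beyond Stk32b, was too, though not under the median of ratios. Near the low Dlx1 and Dlx2 pair, Itga6 (-1.94), Rapgef4 (-1.27) and Pdk1 (-0.66) were higher in chondrocytes and Hat1 (0.64) in osteoblasts. Near Dlx3 and Dlx4, Samd14 (2.11), Fam117a (1.73) and Pdk2 (0.93) were higher in osteoblasts and Kat7 (-0.35) in chondrocytes. Near Msx2, Sfxn1 (1.09), Sptlc1 (0.76) and Ror2 (0.58) were higher in osteoblasts. With the median of ratios, Hat1, Pdk2 and Ror2 were not called.

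**Figure D5:**
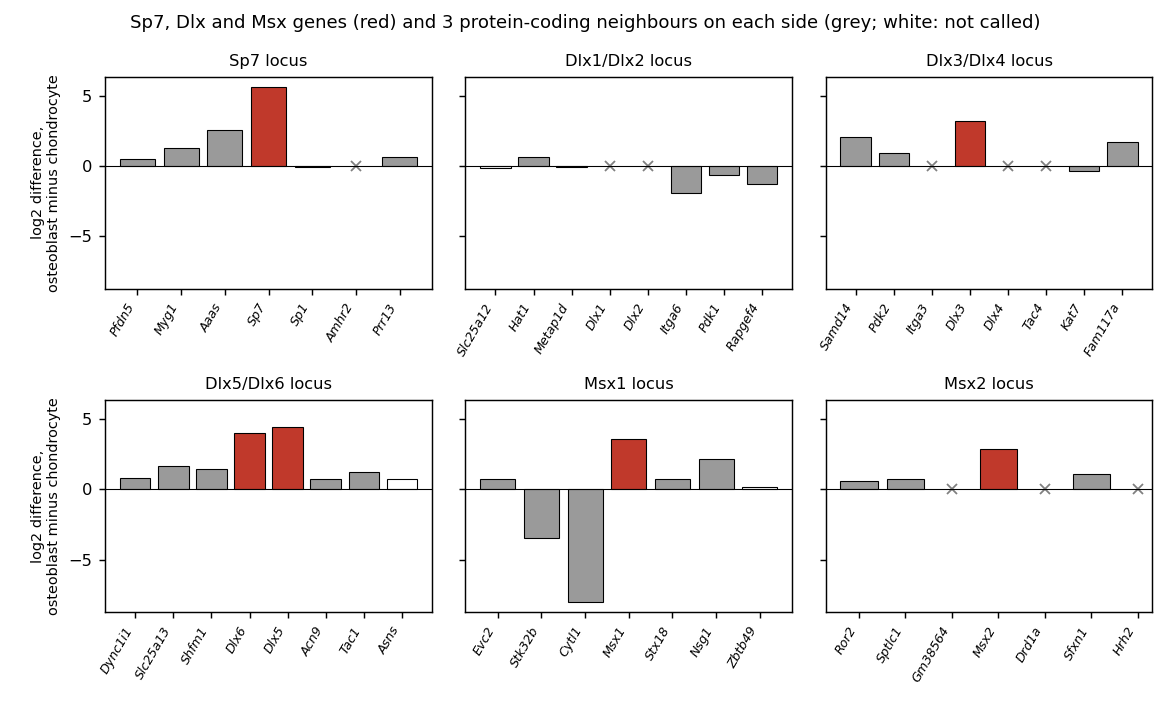
Log2 difference (osteoblast minus chondrocyte) of Sp7, Dlx and Msx genes (red bars) and the 3 protein-coding genes on each side (grey where called, white where not called, a cross where not tested or not in the table), in chromosomal order with 1 panel a locus. Cytl1 (-8.02) and Stk32b (-3.47) point down beside Msx1 (3.61), while the called neighbours of Sp7 and of Dlx5 and Dlx6 all point up.

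The genes most like Sp7, Dlx5 and Msx2 over the 6 libraries were found by the root mean square (RMS) difference of log2(RPKM + 1), each gene centred on its own mean. For Sp7 they were Alpl (0.26), Ifitm5 (0.31), Phospho1 (0.32), Spp1 (0.35) and the homeobox gene Irx3 (0.41). For Dlx5 they were the homeobox gene Irx5 (RMS 0.14, 24.5 ± 2.80 against 0.180 ± 0.181 RPKM, SD, n = 3 each), the ligand gene Wnt10b (0.17), Col26a1 (0.17), Bok (0.19) and the zinc finger gene Zic2 (0.19). For Msx2 they were the activin antagonist gene Fst (RMS 0.07, 7.87 ± 0.383 against 0.197 ± 0.0691 RPKM, SD, n = 3 each), Pard6g (0.075), Angpt2 (0.083), B4galnt1 (0.09) and Cdo1 (0.092). Over 2 groups of 3 libraries this likeness is mostly the size of the group difference. No Dlx or Msx gene was among the 5 most like Sp7.

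Promoter sequence was at hand for 4 of the 9 genes (Dlx1, Dlx2, Msx1 and Msx2). Those of Msx1 and Msx2 are shown as the tested genes among them, with those of Ibsp and Bglap, which had the largest log2 differences among the genes known to depend on Sp7 or Dlx5. Each is the 250 bases before the annotated start from RefSeq on build GRCm38.p6, 5′ to 3′ on the gene's strand. Capitals mark TAATTA (the textbook Dlx and Msx motif), its shorter form TAATT, or GGGCGG (the GC box of Sp factors), each on either strand.
Msx1, chr5:37824586-37824835, minus strand: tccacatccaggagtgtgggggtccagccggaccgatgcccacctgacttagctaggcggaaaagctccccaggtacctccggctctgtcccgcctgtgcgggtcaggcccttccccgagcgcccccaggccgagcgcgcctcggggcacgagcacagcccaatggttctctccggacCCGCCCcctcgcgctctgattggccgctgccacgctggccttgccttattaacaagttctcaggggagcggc
Msx2, chr13:53472781-53473030, minus strand: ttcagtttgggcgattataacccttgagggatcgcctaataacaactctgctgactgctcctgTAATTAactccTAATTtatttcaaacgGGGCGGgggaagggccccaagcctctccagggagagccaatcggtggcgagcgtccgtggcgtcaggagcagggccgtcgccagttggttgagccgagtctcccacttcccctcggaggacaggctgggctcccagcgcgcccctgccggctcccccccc
Ibsp, chr5:104299037-104299286, plus strand: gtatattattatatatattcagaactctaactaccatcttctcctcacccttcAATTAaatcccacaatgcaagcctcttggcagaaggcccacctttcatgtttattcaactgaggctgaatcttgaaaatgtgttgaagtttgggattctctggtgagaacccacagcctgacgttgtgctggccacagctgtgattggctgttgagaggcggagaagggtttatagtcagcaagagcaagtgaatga
Bglap, chr3:88384467-88384716, minus strand: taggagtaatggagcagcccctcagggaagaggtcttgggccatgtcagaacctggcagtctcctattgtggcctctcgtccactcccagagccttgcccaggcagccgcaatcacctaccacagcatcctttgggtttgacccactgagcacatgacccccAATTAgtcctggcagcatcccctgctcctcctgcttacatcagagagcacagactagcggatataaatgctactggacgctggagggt
The Msx2 window held TAATTA once, TAATT 3 times, 2 of them the overlapping strands of that TAATTA, and GGGCGG once. The Msx1 window held GGGCGG once and neither AT-rich motif, and Ibsp and Bglap held TAATT once each. In all 32851 promoter windows of 300 bases, which run on 50 bases past the start, 5.29% held TAATTA, 27.0% TAATT and 35.7% GGGCGG. Of the 16 genes known to depend on Sp7 or Dlx5, 13 had windows, 16 in all, and 6.25% of these held TAATTA, 31.2% TAATT and 18.8% GGGCGG. A match describes the letters only, and binding was not measured here.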

How the data were processed

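RNA-seq of 3 osteoblast and 3 chondrocyte libraries was deposited by the authors as 1 table of RPKM for 31055 RefSeq transcripts. Every deposited value carries a floor of 0.0001, which was subtracted before transcripts sharing a symbol were added up. TopHat2 2.0.8 and build mm9 are named in the submitters' processing notes. The sources used here do not name the counting program or say how it handled strand and reads with several matches. No sample column was left unmapped.

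Testing covered the 11218 genes that reached 1 RPKM in 3 or more of the 6 libraries. Limma 3.58.1 in R 4.3.3 was fitted to log2(RPKM + 1) with its trend and robust options, and its two-sided p-values were adjusted by Benjamini-Hochberg over all tested genes, with a call under 0.05. This scale understates the change of low genes, and the folds printed are ratios of mean RPKM. The procedure was tested on simulated data. Ratios used exact permutation tests with 0.1 RPKM added.

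Reads were estimated from the steps of low values and GENCODE transcript lengths. Of 16523 values under 20 reads, 49.1% lay within 0.05 of an integer, where chance gives 10%, so estimated reads are approximate and no counting intervals are given. Estimated depth was 26900000 to 35700000 reads, so that 1 RPKM equals 53.8 to 71.4 reads for a transcript of 2 kb. Alternatives were other pseudocounts and filters, median-of-ratios and TPM scaling, no trend, library weights, a replicate block, the highest transcript of each symbol and each library left out. A test on the estimated reads with limma's voom was added after the data were seen.

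The 9 genes and the gene lists were chosen with earlier results of these data known. Named genes are the 9, up to 4 called genes of largest difference and 2 uncalled genes of highest level in each list, genes that complete a count of 5 or fewer, the 5 genes most like Sp7, Dlx5 and Msx2, and called neighbours. Tle2, Tle3, Tle4, Bmp2, Bmp4, Bmp6, Bmp7, Id2, Id3, Pax3, Hist1h1b, Sp6, Msx3, the markers below the filter and those compared between chondrocyte libraries were named after their values were seen. The lists hold 9 Sp family genes, 35 homeobox relatives (1 not found in the table), 16 binding partners (1 matched by a synonym), 16 genes known to depend on Sp7 or Dlx5 and 19 BMP genes, and 11 marker lists cover osteoblasts, chondrocytes and other cell types. The homeobox was located in GENCODE transcripts by its conserved core, with 1 letter of the planned pattern left free because it differs among Dlx genes. Protein sequences were not used here. Of the named genes and sequences, 1 list gene and 1 sequence are not reported here.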

Additional observations from a re-analysis of the deposited data

How the results depend on the processing

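The 6 tested Sp7, Dlx and Msx genes were called higher in osteoblasts in all 17 alternatives that kept them, with the exception that a filter that asks for a mean of 5 RPKM left out Dlx3 and Msx2. Their log2 differences ranged most with the scale: Sp7 from 4.27 to 6.46, Dlx5 from 3.03 to 5.38, Dlx6 from 2.04 to 8.56, Dlx3 from 1.48 to 7.20, Msx1 from 2.38 to 4.31 and Msx2 from 1.40 to 4.65, the lowest with 5 RPKM added and the highest with voom on estimated reads, an alternative added after the data were seen. Their largest adjusted p was 0.000246.

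Of the Sp family, 2 genes were called higher in osteoblasts. This became 4 with no filter and 1 with median-of-ratios scaling, with TPM scaling, with the replicate number as a block and with the highest transcript of each symbol, and 1 to 2 with a library left out (1 without any of the 3 osteoblast replicates or without chondrocyte replicate 1). Higher in chondrocytes were 1 Sp gene in the deposited scaling, 3 with the median of ratios and 0 with the mean filter. The homeobox relatives higher in osteoblasts, 4, fell to 0 with the mean filter. Those higher in chondrocytes, 1, became 2 with no filter, 2 with voom and 0 with the mean filter. The BMP genes went from 7 higher in osteoblasts to 2 and from 5 higher in chondrocytes to 8 with the median of ratios. The shares of all tested genes went from 55.5% to 30.6% and from 13.5% to 30.7%. With a library left out, 5 to 8 BMP genes were higher in osteoblasts. The cause of these moves was not tested, except that fewer genes pass the mean filter.

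With 1 RPKM added, the difference in the Dlx5 to Dlx6 ratio turned to 0.46 and that in the Msx1 to Msx2 ratio to 0.71. The latter ranged from -0.32 to 0.088 with a library left out: it was 0.048 without osteoblast replicate 3 and 0.088 without chondrocyte replicate 2.

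Deviations from the group means of same-numbered libraries had r of 0.079, 0.010 and -0.155. With 3 libraries a group, these values cannot decide whether the replicate numbers pair the libraries. With the replicate block, 5892 genes were called higher in osteoblasts and 1376 higher in chondrocytes, against 6224 and 1512 without it, and the 6 tested Sp7, Dlx and Msx genes were called in both.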
